A study of Mus musculus with 6 samples.

Results

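The circadian clock genes Arntl, Clock, Npas2, Per1, Per2, Per3, Cry1, Nr1d1, Nr1d2 and Dbp were followed in white adipose tissue of mice with and without Ksr2. They were found by symbol in the platform annotation, and all 10 were represented, by 24 single-gene probe sets, among the 18193 genes measured. For each gene the probe set with the highest mean over all arrays served as the main one. The wild-type group was 3 C57Bl6 females aged 6 months, and the KSR2-/- group was 3 C57Bl6 females of the same age that are homozygous knockouts for Ksr2, the gene of a scaffold protein of ERK signalling. Each Affymetrix array carries the RNA of 1 animal. The sources used here do not give the fat depot, the deleted part of Ksr2, the feeding state or the hour at which tissue was taken, and differences in that hour cannot be told apart from other differences between mice. The animal numbers in the titles form a higher-numbered series (wild types 1 and 2, knockouts 1 and 2) and a lower-numbered pair (wild type 3 and knockout 3), and replicates were otherwise numbered in accession order.

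The molecular clock is a transcriptional feedback loop that runs in almost every cell, fat cells included. The proteins of Arntl (also called BMAL1) and of Clock or its relative Npas2 form an activator that binds E-box sequences and switches on the Per and Cry genes, whose products then repress that activator. A second loop runs through the nuclear receptors REV-ERBα (Nr1d1) and REV-ERBβ (Nr1d2), which repress Arntl through ROR response elements, and Dbp, a D-box binding transcription factor, passes the rhythm on to other genes. In adipose tissue the clock is known for daily rhythms of lipolysis, lipid synthesis and adipokine release, and in a running clock Arntl RNA peaks at about the opposite time of day to Nr1d1 and Dbp RNA.

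The stretches near start sites that held a searched motif are shown because these are the sequence elements through which the loops are described. Promoter windows from 250 bases before to 50 bases after each start, from RefSeq on GRCm38.p6, were listed for 9 of the 10 genes, in 13 windows. They were searched on both strands for the E-box CACGTG, the related E'-box CACGTT, the ROR element core TAGGTCA, the D-box TTANGTAA and the cyclic AMP element TGACGTCA. Capitals mark the matches, an E'-box on the opposite strand reading as AACGTG, and each stretch runs 5′ to 3′ on the strand of its gene.
Per1: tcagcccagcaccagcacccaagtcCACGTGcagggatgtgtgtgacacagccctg
Cry1: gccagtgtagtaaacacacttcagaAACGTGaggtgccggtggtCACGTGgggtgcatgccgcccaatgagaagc
Nr1d1: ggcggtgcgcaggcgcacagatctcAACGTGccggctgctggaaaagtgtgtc
Per3: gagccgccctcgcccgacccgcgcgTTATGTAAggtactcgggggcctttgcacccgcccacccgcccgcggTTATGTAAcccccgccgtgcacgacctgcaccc
Arntl: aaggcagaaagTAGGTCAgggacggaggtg
The Per1 stretch (chr11:69098758-69098813, plus strand) held an E-box at position -166, counted from the start. The Cry1 stretch (chr10:85185084-85185158, minus strand) held an E-box at -60 and an E'-box at -79. An E'-box began at -28 in Nr1d1 (chr11:98775378-98775430, minus strand). Per3 (chr4:151044791-151044895, minus strand) held a D-box at -205 and another at -158. The ROR element core lay past the start of Arntl (chr7:113207530-113207559, plus strand), at position 31 in 1 of its 2 windows. Of all 32851 windows of that length, 7.15% held the E-box, 4.68% the E'-box, 2.61% the ROR core, 2.32% the D-box and 1.79% the cyclic AMP element, which was found in 0 of the 13. The windows of Clock, Npas2, Nr1d2 and Dbp held none of these motifs. A match describes these letters only, and the arrays did not measure binding.

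No clock gene differed between the genotypes past the threshold, an adjusted p under 0.05 by limma with Benjamini-Hochberg adjustment over all genes. The count was 0 of 10, where 0.0055% of all genes passed, and adjusted p ran from 0.353 to 0.952. At an unadjusted limma p under 0.05 there was 1 member, Npas2, which was lower in KSR2-/-, where 5.38% of all genes were lower and 6.71% higher at that level. The groups did not overlap in 1 member, again Npas2, against 16.3% of all genes without overlap, 8.56% lower and 7.72% higher. With 10 members, counts of 1 lie near both backgrounds. Members' differences, KSR2-/- minus wild type, ran from -0.81 to 0.59 log2, with 6 above and 4 below 0 and a median of 0.08, and the median over all genes was -0.04. The size of the difference, sign left aside, had a median of 0.24 log2 in the members and 0.19 in all genes.

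**Figure D1:**
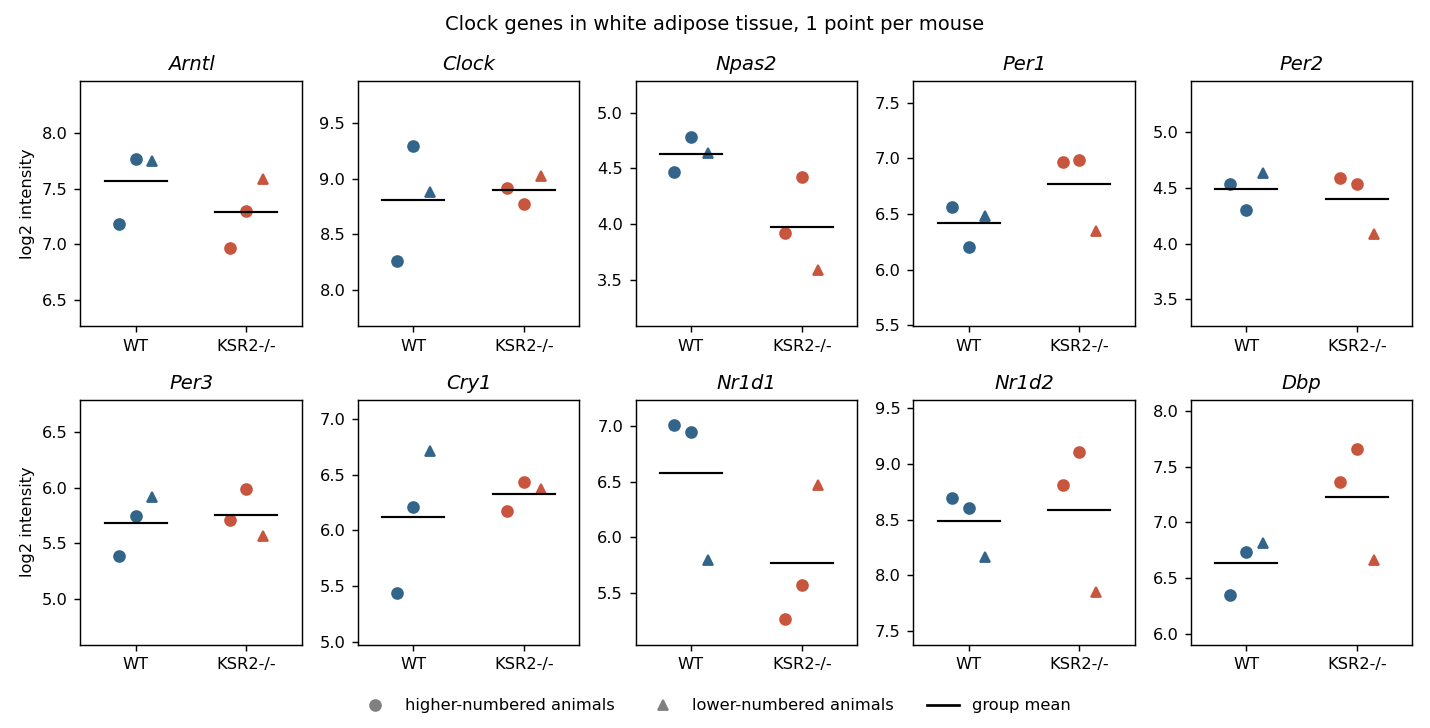
Log2 intensity (y axis, each panel spanning the same number of log2 units) of the main probe set of each clock gene in 3 wild-type and 3 KSR2-/- mice (x axis), 1 point per mouse, with circles for higher-numbered and triangles for lower-numbered animals and bars for group means. The groups overlap in every panel but Npas2, and Nr1d1 has the widest spread, from 5.27 to 7.01.

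Before the members, the libraries themselves were compared. Ksr2 gave a low signal of 4.74, 4.04 and 4.47 log2 in wild type and 4.47, 4.28 and 4.26 in KSR2-/- (limma adjusted p = 0.935), and without knowing where its probes lie relative to the deletion these values check no label. Fat cell genes were measured on every array, with Fabp4 at 13.66 to 13.90 and Adipoq at 12.70 to 13.58 log2. For the marker counts that follow, 5.38% of all genes were lower and 6.71% higher at an unadjusted limma p under 0.05. Of 8 measured adipocyte markers 6 had lower means in KSR2-/-, with 0 past the adjusted threshold of limma, and at an unadjusted p under 0.05 there were 3 lower (Adipoq, Retn and Slc2a4) and 1 higher (Lep). Their summed linear intensity was 51122.5 to 58945 in wild type, 40249.5 and 46705 in knockouts 1 and 2 and 59523 in knockout 3. Wild type 3 stood apart in RNA integrity, as read from Gapdh: its 3' control probe set exceeded the 5' one by 4.18 log2, against 0.07 to 1.46 in the other mice. The summed linear intensity of 7 skeletal muscle markers was 1954 there and 1206 in knockout 3, against 230 to 434 in the other mice, in knockout 3 mostly from Acta1 (9.95 log2), with Ckm at 5.13 there against 7.24 in wild type 3 and 4.61 to 5.24 in the others. The sum of 6 epithelial markers was 1412 in wild type 3 and 886 in knockout 3 against 162 to 234, in knockout 3 mostly from the keratins Krt8 (8.99 log2) and Krt18 (8.14), while Epcam was at 5.17. The 6 mesothelial markers summed to 3203 in knockout 3 against 743 to 1554 elsewhere. Of 6 brown fat markers 5 had lower means in KSR2-/-, with 0 past the adjusted threshold of limma. At an unadjusted p under 0.05 there were 2 lower, Cidea and Cox8b. Brown fat sums, mostly from Cox8b and Cidea, were 1180 to 2685 in wild type and 369 to 790 in KSR2-/-. Ucp1 was at 7.27 log2 in wild type 3 and 6.25 in knockout 3, against 3.79 to 4.24 in the other mice. All 12 macrophage markers had higher means in KSR2-/-, 0 of them past the adjusted threshold of limma and 8 at an unadjusted p under 0.05, and their summed intensity was 11137 to 11509 in wild type, 31722 and 28140 in knockouts 1 and 2 and 14181.5 in knockout 3. The 6 cell cycle markers summed to 193 to 250 in wild type and to 958, 1461 and 287 in knockouts 1 to 3. No marker was at 0, which this kind of intensity does not reach. Knockout 3 thus lay nearer the wild types than knockouts 1 and 2 in both marker lists. In bulk tissue, fewer cells of a type and less RNA per cell cannot be told apart.

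Among the activators, Arntl, the indispensable partner of the complex, measured 7.19, 7.77 and 7.75 log2 in the wild-type mice, in order of replicate, and 6.97, 7.30 and 7.59 in the KSR2-/- mice. Knockout 1 was the lowest mouse and wild type 2 the highest, and the groups overlapped. The difference was -0.28 log2 (SE 0.24, limma adjusted p = 0.722), a 1.21-fold lower mean, with a 95% interval from -0.85 to 0.28. A dimmer second probe set of Arntl, with a mean of 4.30 log2, differed by -0.23 (SE 0.22, adjusted p = 0.804 in the limma fit of all probe sets).

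Clock, the partner that gives the complex its name, measured 8.27, 9.29 and 8.88 log2 in wild type and 8.91, 8.77 and 9.02 in KSR2-/-. The wild types held both the lowest and the highest value and the knockouts lay between them. The difference was 0.09 log2 (SE 0.27, limma adjusted p = 0.943, 95% interval -0.54 to 0.72), and without wild type 1 it was -0.18.

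Npas2, which can stand in for Clock, gave a weak signal of 4.47, 4.78 and 4.64 log2 in wild type and 3.92, 4.42 and 3.59 in KSR2-/-. Every knockout lay below every wild type, the nearest pair being knockout 2 at 4.42 and wild type 1 at 4.47. The difference was -0.65 log2 (SE 0.24, unadjusted p = 0.0281, limma adjusted p = 0.353), a 1.57-fold lower mean, with -0.45 among higher-numbered and -1.05 among lower-numbered animals. A second probe set of Npas2, with a mean of 4.14 log2 against 4.30 for the main one, did not repeat this. It read 4.27, 4.26 and 3.97 in wild type and 4.30, 3.81 and 4.23 in KSR2-/-, with overlap. Its difference was -0.06 (SE 0.18, adjusted p = 0.959 in the limma fit of all probe sets). Over the alternatives the adjusted p of Npas2 ran from 0.248 to 0.714.

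Of the repressors, Per1, the period gene that also answers quickly to glucocorticoids and cyclic AMP, measured 6.57, 6.20 and 6.48 log2 in wild type and 6.97, 6.99 and 6.35 in KSR2-/-. Knockouts 1 and 2 were above every wild type and knockout 3 was among them. The mean was higher by 0.35 log2 in KSR2-/- (SE 0.22, limma adjusted p = 0.617, 95% interval -0.18 to 0.88).

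Per2, the period protein with the strongest hold on rhythm in mice, gave 4.54, 4.30 and 4.63 log2 in wild type and 4.59, 4.54 and 4.09 in KSR2-/- on its main probe set, a difference of -0.08 (SE 0.20, limma adjusted p = 0.924). A second probe set of Per2 read 3.82, 3.74 and 4.02 in wild type and 5.70, 4.98 and 3.57 in KSR2-/-. Knockouts 1 and 2 stood above all other mice on that probe set and knockout 3 was the lowest of all. Its difference was 0.89 log2 (SE 0.50, adjusted p = 0.616 in the limma fit of all probe sets), opposite in sign to that of the main probe set, so the direction for Per2 is not settled by these arrays. The third probe set differed by -0.07.

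Per3, a period gene that the core loop can spare, measured 5.39, 5.75 and 5.91 log2 in wild type and 5.71, 5.99 and 5.56 in KSR2-/-. The difference was 0.07 log2 (SE 0.20, limma adjusted p = 0.939, 95% interval -0.40 to 0.55), and the 6 probe sets of Per3 differed by -0.16 to 0.08. The groups lay across each other on the main probe set.

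Cry1, a cryptochrome and the strongest repressor of the loop, measured 5.44, 6.21 and 6.72 log2 in wild type and 6.18, 6.43 and 6.37 in KSR2-/-. As with Clock, the knockouts lay inside the span of the wild types, wild type 1 being the lowest mouse. The difference was 0.20 log2 (SE 0.32, limma adjusted p = 0.870, 95% interval -0.54 to 0.95).

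Nr1d1, which encodes REV-ERBα, had the largest difference and the widest spread of the members. It measured 7.01, 6.94 and 5.80 log2 in the wild-type mice, in order of replicate, and 5.27, 5.57 and 6.47 in the KSR2-/- mice. Wild types 1 and 2 and knockout 3 were high, and wild type 3 and knockouts 1 and 2 were low, so the groups overlapped. The mean was 6.58 ± 0.68 in wild type and 5.77 ± 0.63 in KSR2-/- (SD, n = 3 each), a difference of -0.81 (SE 0.42, limma adjusted p = 0.521, 95% interval -1.81 to 0.19).

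Nr1d2, which encodes REV-ERBβ, measured 8.69, 8.60 and 8.17 log2 in wild type and 8.81, 9.11 and 7.85 in KSR2-/-. Knockout 2 was the highest mouse and knockout 3 the lowest, and the difference was 0.10 log2 (SE 0.34, limma adjusted p = 0.952, 95% interval -0.70 to 0.91). Both mice of the lower-numbered pair were below the other 4 mice. A dim second probe set differed by -0.26 (SE 0.61).

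Dbp, the output factor of the loop, measured 6.35, 6.74 and 6.82 log2 in wild type and 7.36, 7.66 and 6.66 in KSR2-/-. Knockouts 1 and 2 lay above every wild type, and knockout 3 lay between wild types 1 and 2. The mean was 6.63 ± 0.25 in wild type and 7.23 ± 0.51 in KSR2-/- (SD, n = 3 each), a 1.51-fold difference of 0.59 log2 (SE 0.28, limma adjusted p = 0.470, 95% interval -0.07 to 1.26). Without knockout 3 it was 0.88 (adjusted p = 0.0995 by limma).

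The dimmer probe set of Dbp read 4.88, 5.02 and 4.96 log2 in wild type and 5.18, 5.55 and 5.40 in KSR2-/-. Here every knockout, knockout 3 included, was above every wild type, with a difference of 0.42 log2 (SE 0.15, unadjusted p = 0.0260, limma adjusted p = 0.421). It was 0.41 among higher-numbered and 0.43 among lower-numbered animals. Knockouts 1 and 2, where the main probe set of Dbp, Per1 and the second probe set of Per2 were highest, were also the mice with macrophage marker sums of 31722 and 28140, cell cycle sums of 958 and 1461 and the lowest adipocyte sums, 40249.5 and 46705. The part of those cells in the clock gene values was not tested.

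**Figure D2:**
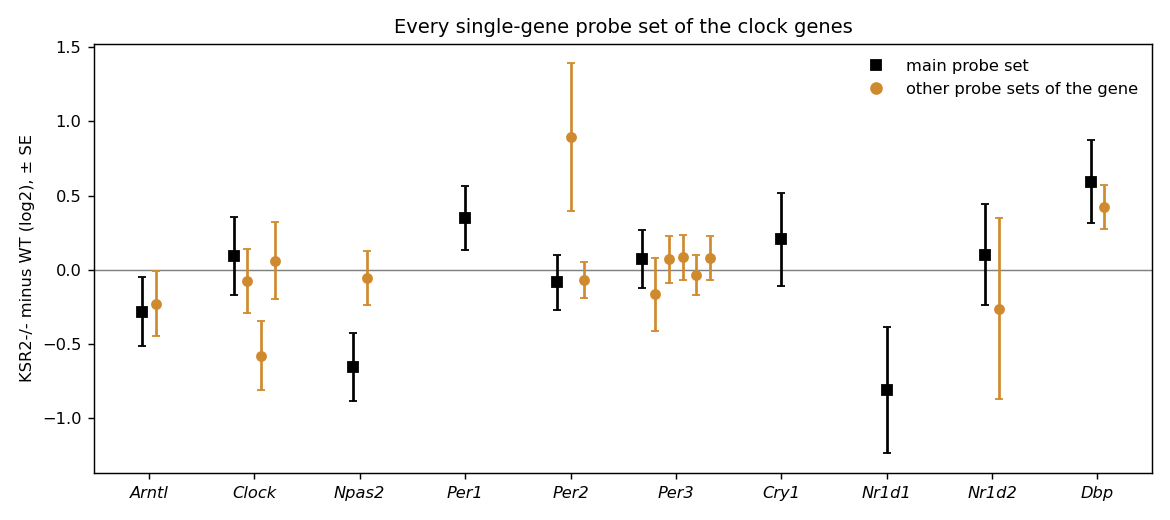
KSR2-/- minus wild-type difference in log2 units (y axis, bars for the standard error of a limma fit of all probe sets) for each of the 24 single-gene probe sets, grouped by clock gene (x axis), with black squares for the main probe set and orange circles for the others. The probe sets of Arntl, Npas2 and Dbp lie on 1 side of 0, and those of Clock, Per2, Per3 and Nr1d2 lie on both.

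Over all 24 probe sets, 12 were higher and 12 lower in KSR2-/-. The limma fit of 45037 probe sets passed 0 at an adjusted p under 0.05, members or others, and at an unadjusted p under 0.05 it gave 3 member probe sets, where 10.1% of all probe sets did. These were the main probe set of Npas2, the dimmer one of Dbp and a secondary one of Clock. That Clock probe set read 6.82, 7.46 and 7.42 log2 in wild type and 6.42, 6.61 and 6.95 in KSR2-/-, a difference of -0.58 (SE 0.23, limma adjusted p = 0.470), while the other 3 probe sets of Clock differed by -0.07 to 0.09. Wild type 1, at 6.82, overlapped with knockout 3.

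The genotype difference on the main probe sets was then taken within each series of animal numbers. In the higher-numbered series (2 against 2 mice) 7 of the 10 members were above 0, and in the lower-numbered pair (1 against 1) 2 were. The sign was opposite in 7 of 10 members, where 41.6% of all genes had opposite signs. Arntl (-0.34 and -0.16), Clock (0.07 and 0.14) and Npas2 kept their sign between the series, although Clock turned when wild type 1 was left out. Per1 differed by 0.59 and -0.14, Per3 by 0.28 and -0.35, Cry1 by 0.48 and -0.34, Nr1d2 by 0.31 and -0.32 and Dbp by 0.97 and -0.15. Other probe sets could go otherwise. The second ones of Arntl (-0.43 and 0.18) and Npas2 (-0.21 and 0.26) and the dimmest of Clock (-0.11 and 0.41) turned. The dimmer one of Dbp kept its sign (0.41 and 0.43).

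Nr1d1 differed by -1.55 log2 among higher-numbered animals and by 0.68, the other way, between the lower-numbered ones. Fitted on the higher-numbered series alone, a choice made after the values were seen, it was lower in KSR2-/- (SE 0.23, limma adjusted p = 0.0361), the 1 member to pass, where 2.68% of all genes passed. Over all alternatives the adjusted p of Nr1d1 ran from 0.0361 to 0.893. In a model with a separate genotype difference for each series, the differences of Nr1d1 lay 2.23 log2 apart (SE 0.39, unadjusted p = 0.00175, limma adjusted p = 0.339) and those of Dbp -1.12 apart (SE 0.44, unadjusted p = 0.0470, limma adjusted p = 0.813). That model passed 0 genes at an adjusted p under 0.05 and 5.97% of all genes at an unadjusted one. Wild type 3, the mouse with the Gapdh difference of 4.18, makes up the wild-type side of the lower-numbered pair, and its part in these differences was not tested. Without wild type 3 the pooled difference of Nr1d1 was -1.20 (limma adjusted p = 0.366), and without knockout 3 it was -1.16 (0.208).

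**Figure D3:**
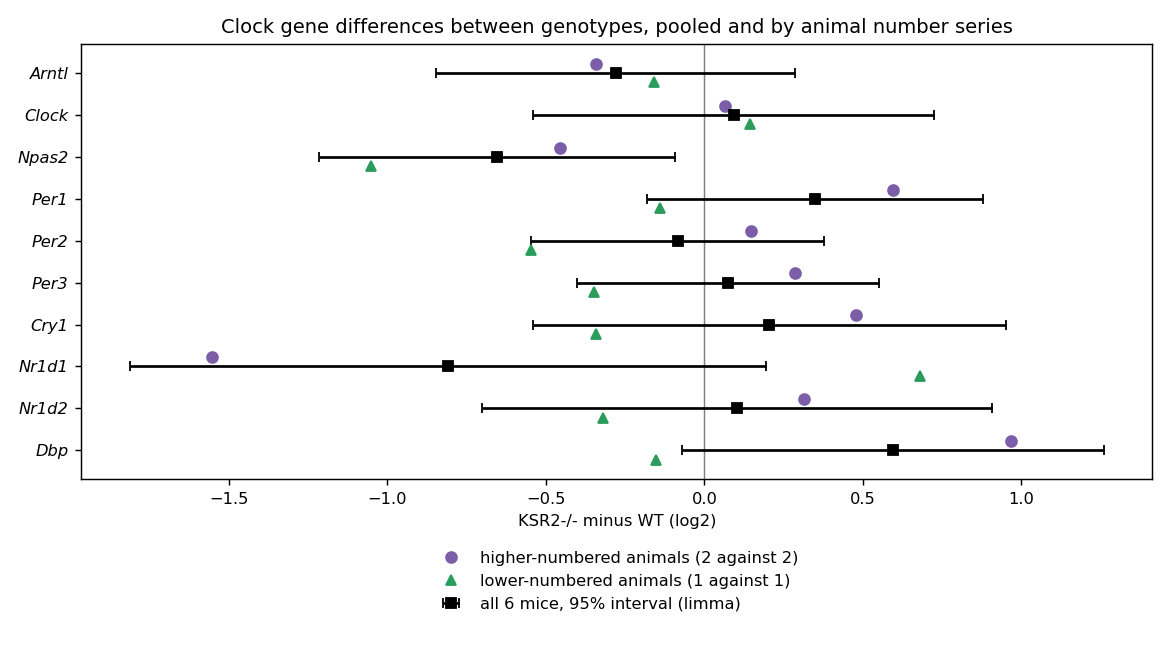
KSR2-/- minus wild-type difference in log2 units (x axis) for each clock gene (y axis), over all 6 mice with the 95% interval of the limma fit (black squares) and within the higher-numbered (purple circles, 2 against 2) and lower-numbered animals (green triangles, 1 against 1). The interval excludes 0 for Npas2 alone before adjustment, and the circle and triangle of Nr1d1 lie at -1.55 and 0.68.

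Variation between mice of 1 genotype was large for several members. The within-genotype SD was 0.65 log2 for Nr1d1, above that of 93.9% of genes, 0.51 for Nr1d2 (85.8%), 0.47 for Cry1 (81.9%) and 0.40 for Dbp (73.8%). Per2 (0.23) and Per3 (0.24) were the 2 members below the median gene. The members' median SD was 0.35 log2 against 0.27 over all genes, and the median span from the lowest to the highest mouse was 1.11 against 0.77 log2. These are descriptions without a test.

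Because Arntl RNA runs in about opposite phase to Nr1d1 and Dbp RNA in a rhythmic tissue, Arntl was set against the other members. That phase relation is not meant for all 9 of them, such as its partners Clock and Npas2. All 6 mice were used. Pearson's r was -0.80 with Per1, -0.60 with Nr1d2, -0.43 with Per2, -0.37 with Dbp, 0.26 with Per3, 0.37 with Npas2, 0.40 with Nr1d1, 0.52 with Cry1 and 0.56 with Clock. The mice with the least Arntl, knockout 1 and wild type 1, thus had more Per1 than wild type 2, the mouse with the most. Their arrays also had the lowest medians over genes, 5.87 and 5.77 log2, against 5.964 to 6.075 on the others. None of the 9 relations passed a two-sided exact permutation test with Benjamini-Hochberg adjustment. For Per1 the exact permutation p was 0.0681 for Pearson's r and 0.103 for Spearman's rho of -0.77 (adjusted 0.513 and 0.535), and 2.98% of all genes had an r with Arntl at least as low. That share was 11.1% for Nr1d2, 19.2% for Per2 and 21.8% for Dbp. An r at least as high was held by 32.2% of all genes for Clock, 34.4% for Cry1, 41.3% for Nr1d1, 42.7% for Npas2 and 48.5% for Per3. Without the 2 mice farthest from the median of Arntl (knockout 1 and wild type 2) the r with Per1 was -0.55 over 4 mice, and with each array centred on its median gene it was -0.96 (exact permutation adjusted p = 0.050). Nr1d1, placed by the textbook loop against Arntl, had a positive r over all mice, one that was -0.40 without those 2 mice. Other values moved as much with the mice and the scaling. The r with Dbp was -0.78 without wild type 1 and -0.87 with quantile normalization, that with Nr1d1 was 0.77 without wild type 1, and those with Clock and Cry1 were 0.09 and 0.12 with quantile normalization. With each array centred on its median gene, the r was 0.35 with Clock, 0.17 with Cry1 and -0.30 with Per3. The r values above pool 2 genotypes, so differences between group means enter them. On deviations from the mean of each genotype r was -0.74 with Per1, -0.62 with Nr1d2, -0.62 with Per2 and -0.09 with Dbp. It was 0.01 with Npas2, 0.16 with Nr1d1, 0.40 with Per3, 0.72 with Clock and 0.76 with Cry1. The lowest permutation adjusted p there was 0.283. Deviations were permuted across both genotypes, so this p is approximate and not exact. No correlation was computed within the series of animal numbers, which hold 4 and 2 mice.

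The genes whose profile over the 6 mice was most like that of Nr1d1 were taken from the 9090 other genes with a mean at or above the median of all gene means. They were Fasn (r = 0.99), the fatty acid synthase, Tkt (0.99), the transketolase of the pentose phosphate pathway, the ubiquitin ligase gene Rnf144a (0.98), the sorting receptor gene Sorl1 (0.98) and Acss2 (0.97), which makes acetyl-CoA from acetate. Fasn measured 13.27, 13.03 and 11.82 log2 in the wild-type mice, in order of replicate, and 11.18, 11.18 and 12.57 in the KSR2-/- mice. The same 3 mice, wild types 1 and 2 and knockout 3, were high in Fasn as in Nr1d1. Acss2 measured 10.64, 11.26 and 9.04 in wild type and 8.26, 8.60 and 9.83 in KSR2-/-, with the same mice high. These correlations were picked from 9090 genes over only 6 mice that share their arrays' processing, and are given as a description without a p.

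**Figure D4:**
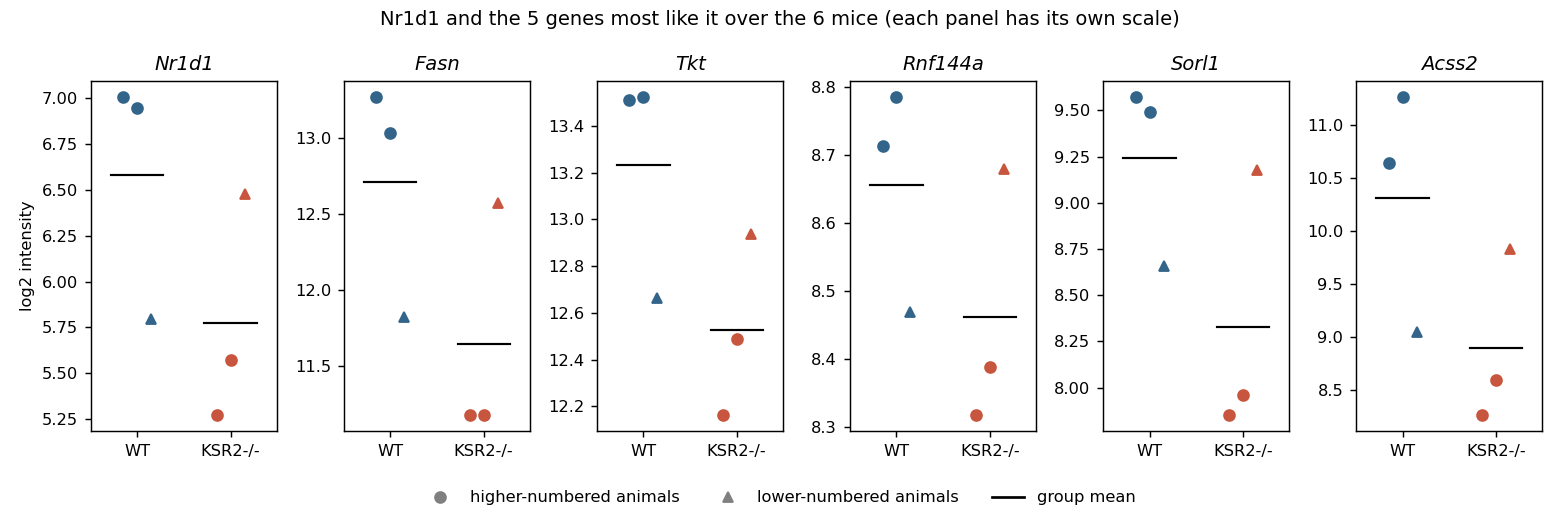
Log2 intensity (y axis, a scale of its own in each panel) of Nr1d1 and of the 5 genes with the highest Pearson r to it over the 6 mice (x axis, genotype), 1 point per mouse, with circles for higher-numbered and triangles for lower-numbered animals and bars for group means. In each panel wild types 1 and 2 and knockout 3 lie above wild type 3 and knockouts 1 and 2.

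For Arntl, the genes with the most similar profile were Tsr2, Mrpl49, which encodes a protein of the mitochondrial ribosome, Hsbp1, the aldehyde oxidase gene Aox1 and Nicn1, with r from 0.99 to 1.00. The most opposite were Rcsd1, the potassium channel subunit gene Kcne4, the kinase gene Stk17b and the interferon-induced genes Epsti1 and Trim30a, with r from -0.99 to -0.98. Both ends were picked from the same 9090 genes over only 6 mice, where extreme r arise by selection, and are given without a p. Trim30a measured 7.86, 7.25 and 7.19 log2 in wild type and 8.15, 7.91 and 7.32 in KSR2-/-, highest in knockout 1, the mouse with the lowest Arntl. The summed linear intensity of 7 T cell markers was highest in the mice lowest in Arntl, at 563 (wild type 1) and 539 (knockout 1), against 200.1 to 304 in the other mice, and its part in the profile of Arntl was not tested. The arrays of wild type 1 and knockout 1 also had the lowest medians over genes, 5.77 and 5.87 log2, whose part was not tested either.

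The other genes of the clock loops numbered 11 measured of 12 listed: Arntl2, Cry2, Rora, Rorb, Bhlhe40, Bhlhe41, Nfil3, Ciart, Timeless, Tef and Hlf. Of these 5 were higher and 6 lower, with a median difference of -0.01 log2, and limma passed 0 at an adjusted p under 0.05. At an unadjusted p under 0.05, a level reached by 12.1% of all genes, there was 1, Timeless. Timeless is the mouse relative of a fly clock gene and acts mainly at replication forks. It measured 5.15, 5.99 and 5.80 log2 in wild type and 6.23, 6.74 and 6.30 in KSR2-/-, without overlap (difference 0.78, SE 0.26, limma adjusted p = 0.318). It was highest in knockout 2, the mouse with the highest cell cycle marker sum, 1461. Knockout 3, with a sum of 287, read 6.30, above knockout 1 at 6.23 with a sum of 958. The part of dividing cells was not tested. Hlf, a D-box factor of the same family as Dbp, went the other way from Dbp, at 5.49, 6.02 and 6.33 in wild type and 5.28, 5.37 and 5.58 in KSR2-/- (difference -0.54, SE 0.24, limma adjusted p = 0.439).

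Of the kinases, ubiquitin ligases and other proteins that modify clock proteins, 13 of 15 listed were measured, 8 higher and 5 lower, with a median of 0.06 log2 and 0 past the adjusted threshold of limma. At an unadjusted p under 0.05 there were 2, both lower and without overlap. Of all genes 5.38% were lower at that level. Lower without overlap were 3 modifiers, these 2 and Csnk2a1, against 8.56% of all genes. Prkaa1, a catalytic subunit of AMPK, the energy sensor that marks cryptochromes for degradation, measured 7.41, 7.92 and 7.24 log2 in wild type and 6.74, 6.37 and 7.04 in KSR2-/- (difference -0.80, SE 0.25, limma adjusted p = 0.301). Btrc, a ubiquitin ligase subunit that recognises phosphorylated PER proteins, measured 5.83, 5.89 and 5.88 in wild type and 5.17, 5.35 and 5.62 in KSR2-/- (difference -0.49, SE 0.17, limma adjusted p = 0.320). Those values are of its main probe set. With the mean of all 5 probe sets of Btrc the difference was -0.10 (limma adjusted p = 0.823).

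Clock-controlled output genes were measured for 11 of 14 listed, with 4 higher, 7 lower and a median of -0.21 log2. None passed the adjusted threshold of limma, and 2 higher and 2 lower had an unadjusted p under 0.05. Of all genes 6.71% were higher and 5.38% lower at that level. Noct, which encodes nocturnin, measured 7.57, 8.60 and 8.48 log2 in wild type and 9.28, 9.74 and 8.78 in KSR2-/-, without overlap (difference 1.05, SE 0.35, limma adjusted p = 0.314). Cdkn1a, the cell cycle inhibitor p21, measured 7.26, 8.46 and 8.94 in wild type and 8.81, 9.43 and 10.36 in KSR2-/- (difference 1.31, SE 0.52, limma adjusted p = 0.389). Both outputs were highest in knockouts, Noct in knockout 2 and Cdkn1a in knockout 3.

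The lower outputs were Ppargc1a, the coactivator PGC-1α that can also raise Arntl transcription, and Klf15, a Krüppel-like factor of amino acid and glucose metabolism. Ppargc1a measured 5.57, 5.61 and 4.68 log2 in wild type and 3.63, 3.40 and 3.92 in KSR2-/- (difference -1.64, SE 0.29, limma adjusted p = 0.193, 0.0366 without knockout 3, and 0.0191 to 0.704 over its alternatives). Its signal was weak, with 33.8% of genes lower in mean signal. With the mean of all 5 probe sets of Ppargc1a the difference was -1.15 (limma adjusted p = 0.223). On the main probe set every knockout was below every wild type. Brown fat marker sums, 1180 to 2685 in wild type and 369 to 790 in KSR2-/-, did not overlap either, and came mostly from Cox8b and Cidea. The genotypes overlapped in Ucp1, Elovl3, Dio2 and Prdm16, with differences of -0.07, -0.29, -0.07 and 0.19 log2. The part of brown fat cells in the values of Ppargc1a was not tested. Klf15 measured 8.48, 9.31 and 9.20 in wild type and 7.46, 7.94 and 8.48 in KSR2-/- (difference -1.03, SE 0.33, limma adjusted p = 0.302), with knockout 3 level with wild type 1.

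Glucocorticoids reset peripheral clocks and act on Per1 directly, so 10 glucocorticoid-responsive genes were set beside it. Of these 6 were higher and 4 lower, with a median of 0.22 log2 and 0 past the adjusted threshold of limma. At an unadjusted p under 0.05 there was 1, against 12.1% of all genes. The 1 gene at an unadjusted p under 0.05 was Mt2, a metallothionein, at 8.01, 9.40 and 9.42 log2 in wild type and 10.53, 10.65 and 9.64 in KSR2-/-, without overlap (difference 1.33, SE 0.45, limma adjusted p = 0.315). Zbtb16, which had the next smallest p, measured 9.11, 7.64 and 8.49 in wild type and 7.39, 7.15 and 8.50 in KSR2-/- (difference -0.73, SE 0.47, limma adjusted p = 0.616).

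**Figure D5:**
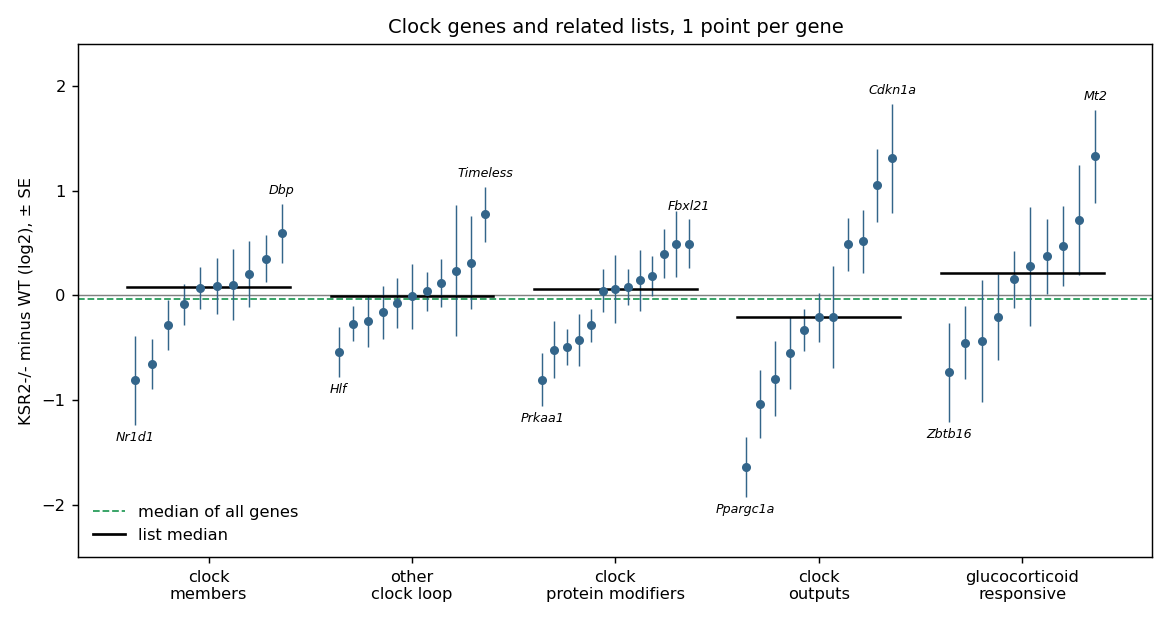
KSR2-/- minus wild-type difference in log2 units (y axis, bars for the standard error of the limma fit) of each measured gene of the clock members and of 4 related lists (x axis), with black lines for list medians and a dashed line for the median of all genes at -0.04. Each list spreads to both sides of 0, with medians from -0.21 for clock outputs to 0.22 for glucocorticoid-responsive genes.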

How the data were processed

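Total RNA of white adipose tissue from 6 mice was measured on 6 Affymetrix arrays, labelled by a 1-cycle protocol per the labels' protocols. The values analysed are intensity values that the authors deposited, made by RMA per the submitters' processing notes, which give no version. Their linear scale was read from the values, whose medians per array were 22.4 to 24.2. Over the genes used, the median was 5.77 log2 in wild type 1 and 5.87 in knockout 1, against 5.964 to 6.075 on the others. The fitted values are log2 of the deposited intensity, with no pseudocount, the lowest value being 2.96. RMA summarises all arrays together, so they are not independent at that step.

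Of 45101 probe sets, 34945 non-control ones had a single gene symbol, 932 had several, and 34741 were matched by gene identifier to RefSeq genes of GRCm38.p6 for current symbols. Each of 18193 genes was represented by the probe set with the highest mean, with no filter on dim genes, and 135 of 149 listed gene entries were measured. Genotypes were set against each other in limma 3.58.1 (R 4.3.3) by lmFit and eBayes without a trend (3.06 prior degrees of freedom). Tests were two-sided, p was adjusted by Benjamini-Hochberg over every gene, and 0.05 was the threshold. Precision is limited by the few arrays, the median standard error being 0.22 log2. Nothing in the labels says whether mice were littermates. Correlations used exact permutation over the mice in Python 3.11.15, and were repeated on deviations from the mean of each genotype, where the permutation p is approximate. The fit was tested on simulated data. The gene set enrichment analysis named by the series was not used here.

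The clock genes and the other lists were chosen with earlier results of these data known. Named with values are Ksr2, every clock gene and the list genes at an unadjusted p under 0.05 (or the 2 with the smallest p where fewer than 2 reached it). The 5 genes nearest in profile to Arntl at each end and to Nr1d1 at the high end are named with r or its range. Of these, only Fasn, Acss2 and Trim30a are given by mouse. Alternatives tried were dropping genes under the median of gene means, averaging a gene's probe sets, repeated quantile normalization, centring, eBayes with trend, the animal number series as a block, the Gapdh difference as a covariate, each array left out, and, added after the data were seen, the higher-numbered series alone, a term for a different genotype effect in each series, and the relations of Arntl without wild type 1.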

Additional observations from a re-analysis of the deposited data

How the results depend on the processing

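No clock gene passed limma's adjusted threshold under any alternative but the higher-numbered series alone, and the pooled differences of Arntl, Npas2, Per1, Nr1d1 and Dbp kept their direction in every one that gave a value, Npas2 having none under the median filter. With a separate genotype effect for each series, Per1 (0.59 and -0.14), Nr1d1 (-1.55 and 0.68) and Dbp (0.97 and -0.15) had opposite signs in the higher-numbered and lower-numbered animals. In the higher-numbered series alone 1 clock gene passed, Nr1d1 at -1.55, and 487 of all genes. Directions turned for members near 0. With the mean of all probe sets Clock was -0.12, Per2 0.25 and Nr1d2 -0.079. On other probe sets Clock was -0.074 and -0.58, Per2 0.89, Per3 -0.034 and -0.16, and Nr1d2 -0.26, and Per2 was 0.15 in the higher-numbered series. With 1 mouse left out the differences ran from -0.18 to 0.33 for Clock (lowest without wild type 1), -0.18 to 0.074 for Per2 (highest without knockout 3), -0.072 to 0.19 for Per3, -0.14 to 0.50 for Cry1, -0.16 to 0.47 for Nr1d2 and -0.27 to 0.082 for Ksr2.

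Genes past the threshold numbered 1 (1 higher, 0 lower) in all mice, 12 with the median filter (8 and 4), 2 with quantile normalization, 16 with centring (10 and 6), 10 with trend, 0 with a block for animal series, 6 with the Gapdh covariate, and 0 to 816 with 1 mouse left out, the highest without knockout 3, then 9 without wild type 3 and 0 without any of the others. The filter left 7 of the 10 clock genes to test, without Npas2, Per2 and Per3. Clock genes at an unadjusted p under 0.05 numbered 1 in all mice (12.1% of all genes), 0 with the filter (13.9%), 2 with the mean of all probe sets (12.8%), 3 in the higher-numbered series (14.6%), and 0 (without wild type 2, 7.16%, or knockout 1, 7.94%) to 3 (without knockout 3, 16.2%) with 1 mouse left out. The r of Arntl with Per3 was -0.10 with quantile normalization, -0.30 with centring and -0.0076 without wild type 1, and without the 2 mice farthest in Arntl it was -0.16 with Npas2 and -0.40 with Nr1d1. The cause of these changes was not tested. No paired analysis was possible because the labels give the genotypes no shared replicate numbers. With 3 mice a group, an exact permutation test of 1 gene cannot go below 0.1, and the weak signals of Npas2, Per2 and Ppargc1a limit what their values can show.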
